A study of Mus musculus with 9 samples.

Results

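The mitochondrial ribosomal proteins were taken as the genes whose mouse symbol starts with Mrpl or Mrps followed by a digit, with pseudogene symbols ending in -ps left out. There were 78 such genes among the 16636 in the count table, 49 named Mrpl and 29 named Mrps. They were followed in E14 mouse embryonic stem cells, a wild-type line held in the naive state in 2i medium with LIF on fibronectin. The study compared 3 groups of 3 libraries, given as biological replicates. The groups were untreated cells, cells given a luciferase siRNA as the control (siLuc) and cells given Stag3 siRNA (siStag3), each siRNA for 48 hours and in a pair of transfections on successive days. STAG3 belongs to cohesin, a ring-shaped complex that tethers sister chromatids, and is a form known mainly from meiotic cells. Untreated cells were not transfected, so siLuc against untreated compares transfection with none, and siStag3 against siLuc compares the siRNA targets.

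Mitochondria carry ribosomes of their own, built from rRNA of the mitochondrial genome and from proteins that are encoded in the nucleus, made in the cytosol and imported. These ribosomes translate the few mRNAs of the mitochondrial genome, all of which encode subunits of the respiratory chain and ATP synthase. The small subunit reads the mRNA, and the large subunit joins the amino acids and guides the new protein through an exit tunnel to the inner membrane. Many of the proteins have a counterpart in bacterial ribosomes, and others are found in mitochondria alone. Naive stem cells use both respiration and glycolysis.

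By their place in the mitoribosome, 51 of the 78 encode large-subunit proteins and 26 small-subunit proteins. Mrps18a and Mrps30 were counted with the large subunit, where their proteins sit despite the names. The protein of Mrps36 is a component of the alpha-ketoglutarate dehydrogenase complex and was counted with neither. A bacterial counterpart is known for 48 of the proteins, and 30 are specific to mitochondria. All 78 genes passed the filter on low counts, with 59 to 7975 counts in a library. The low end was Mrpl23, and no other member had fewer than 296 counts in any library.

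Total counts ran from 29332436 to 44527534 per library. Stag3 was at 24.1, 24.3 and 28.6 CPM (counts relative to the library total, scaled by TMM factors) in the untreated libraries, 22.5, 23.3 and 26.7 in siLuc, and 13.5, 15.2 and 15.6 in siStag3, where all 3 libraries lay below the others. A list of 8 pluripotency genes summed to between 4729 and 5230 CPM in every library. Lists for primitive endoderm, trophoblast, fibroblasts and two-cell-like cells each summed to at most 8.89 CPM, with the fibroblast gene Dcn not in the table. Column names divided the libraries into a Set 1, with 2 libraries of each group, and a Set 3, with 1 library of each. What a set is was not explained in the labels. The first principal component, with 41.1% of the variance, placed the Set 1 libraries between -20.46 and -2.70 and the Set 3 libraries at 17.09 (siLuc), 33.48 (untreated) and 39.87 (siStag3). The set was therefore a term in every main test, and in Set 3 the siLuc library carries experiment number 1 where the other two carry 5.

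Promoters of mitochondrial genes are known for binding sites of NRF1, of the ETS factor GABP (also called NRF2) and of YY1. RefSeq windows of 300 bases in GRCm38.p6, from 250 bases before to 50 after a start, were held for 69 of the 78 genes, in 75 windows. Both strands were searched for the letters GCGC, any base and TGCGC (NRF1), CCGGAAG (ETS) and AAGATGGCG (YY1). The ETS letters were in 34.7% of the members' windows, against 16.0% of 14260 windows of genes tested and 8.86% of all 32851 windows. The NRF1 letters were in 17.3%, against 9.05% and 4.60%, and the YY1 letters in 10.7%, against 2.67% and 1.40%. At least 1 of these motifs was in 41 windows of the members, or 54.7%, against 25% of windows of genes tested. For contrast, the E-box CACGTG was in 9.33% of the members' windows and in 9.63% of those of genes tested. A match of letters is a description and does not show that a factor binds there.

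**Figure D1:**
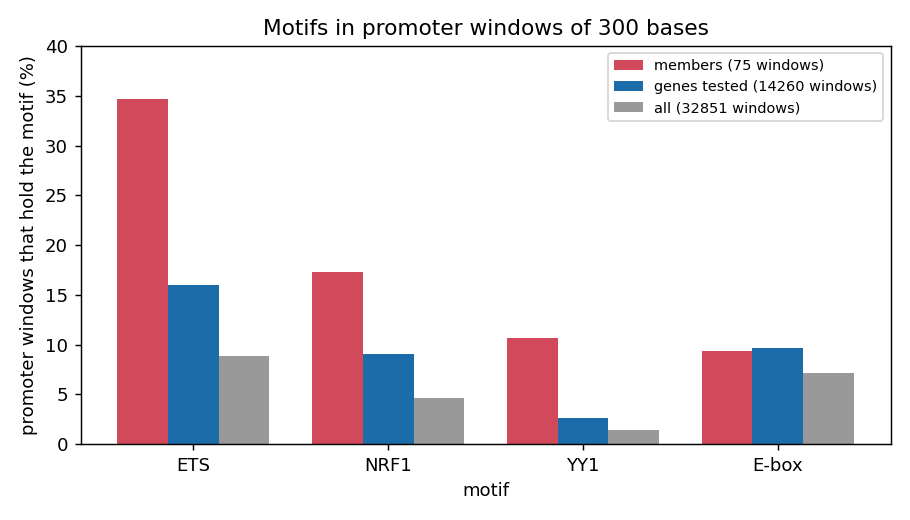
Share of promoter windows of 300 bases (y axis, percent) that hold each motif on either strand (x axis), for the mitochondrial ribosomal protein genes, the genes tested and all RefSeq windows. The ETS bar of the members stands at 34.7% and that of the genes tested at 16.0%, while the E-box bars are at 9.33% and 9.63%.

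There were 6 windows with 2 kinds of these motifs, those of Mrpl17, Mrpl57, Mrps18a, Mrps21, Mrps26 and Mrps27. Shown here are the member of highest level (Mrpl17), the member with the 2 overlapping NRF1 matches (Mrps26), one with a YY1 match (Mrps18a) and one of the lowest-level members (Mrpl57). Each runs 5′ to 3′ on the gene's own strand from 250 bases before the start to 30 after it, and capitals mark the matches. Mrpl17 is chr7:105811058-105811337 on the minus strand, and its NRF1 match begins 49 bases before the start. Mrps26 is chr2:130563507-130563786, Mrps18a is chr17:46110754-46111033 and Mrpl57 is chr14:57825989-57826268, all on the plus strand of GRCm38.p6.
Mrpl17: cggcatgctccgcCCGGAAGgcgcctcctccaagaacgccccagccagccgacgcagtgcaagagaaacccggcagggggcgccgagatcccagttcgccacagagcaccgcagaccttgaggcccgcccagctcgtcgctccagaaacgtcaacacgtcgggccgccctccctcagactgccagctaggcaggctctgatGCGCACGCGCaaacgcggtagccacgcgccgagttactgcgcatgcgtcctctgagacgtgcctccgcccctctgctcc
Mrps26: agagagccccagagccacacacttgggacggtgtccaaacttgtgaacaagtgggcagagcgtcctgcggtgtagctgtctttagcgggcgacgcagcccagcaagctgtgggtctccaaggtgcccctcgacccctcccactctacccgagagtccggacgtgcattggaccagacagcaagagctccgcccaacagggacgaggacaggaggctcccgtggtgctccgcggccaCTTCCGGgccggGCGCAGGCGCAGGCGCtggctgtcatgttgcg
Mrps18a: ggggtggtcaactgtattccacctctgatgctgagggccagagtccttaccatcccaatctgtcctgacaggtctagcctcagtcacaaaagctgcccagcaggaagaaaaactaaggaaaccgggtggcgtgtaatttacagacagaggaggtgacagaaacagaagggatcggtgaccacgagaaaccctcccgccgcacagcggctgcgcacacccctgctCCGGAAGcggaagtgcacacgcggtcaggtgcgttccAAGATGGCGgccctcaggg
Mrpl57: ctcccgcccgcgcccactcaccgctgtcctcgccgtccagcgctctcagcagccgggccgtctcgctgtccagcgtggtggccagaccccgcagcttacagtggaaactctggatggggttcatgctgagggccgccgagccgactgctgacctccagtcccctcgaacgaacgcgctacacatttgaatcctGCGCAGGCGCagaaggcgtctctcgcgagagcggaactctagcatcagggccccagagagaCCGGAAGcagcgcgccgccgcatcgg
The overlapping NRF1 matches of Mrps26 begin 2 bases before its start, next to an ETS match that begins 14 bases before. In Mrps18a the ETS match begins 26 bases before the start.

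The mitochondrial ribosomal protein mRNAs were well expressed in these cells. Levels of different genes were compared per transcript length, as TPM (CPM divided by length and rescaled). The median member was at 54.3 TPM, above 79.2% of the 14226 genes with a length, whose median was 12.4 TPM. The middle of the family was narrow, with quartiles of 35.3 and 79.7 TPM, but its ends were 45.9-fold apart. Large-subunit members had a median of 51.4 TPM and small-subunit members 56.4. Members with a bacterial counterpart had a median of 60.8 TPM and mitochondria-specific ones 45.7.

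Mrpl17, a bacterial-type large-subunit protein, was the highest at a mean of 225 TPM (204 to 241 over the 9 libraries). Mrpl42, a mitochondria-specific large-subunit protein, followed at 213 (201 to 226), and these ranges overlapped. Next came Mrps18b at 179 (171 to 192), below both and above Mrpl11 at 134 (128 to 148). Mrps18b has 2 paralogs in the mitoribosome, and they were lower, with Mrps18c at 83.6 TPM (76.9 to 87.6) and Mrps18a at 42.8 (38.0 to 51.5). The ranges of the 3 paralogs did not overlap.

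The lowest members were Mrpl23 at 4.90 TPM (3.66 to 6.45), Mrpl57 at 7.09 (6.33 to 8.41) and Mrps25 at 7.73 (7.15 to 8.52). Mrpl23, a protein of the exit tunnel, shares 77.0% of the 31-base stretches of its coding transcripts with other genes, among them its pseudogene Mrpl23-ps1. For Mrps25 the share was 74.6%, mainly with Nr2c2, and for Mrpl53 it was 100%, with Gm42688. Shares for Mrps18b, Mrps34 and Mrpl27 were 58.3%, 55.6% and 54.0%. Levels of these 6 genes are uncertain, since reads from shared stretches can be assigned to either gene. In 42 members under 10% was shared.

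Among proteins with known posts in the large subunit, the stalk that recruits translation factors was represented by Mrpl12 at 91.0 TPM and by its anchor Mrpl10 at 69.1. Mrpl45, which lies at the tunnel exit and helps tie the ribosome to the inner membrane, was at 121 TPM. Mrpl3, a core protein of bacterial type, was at 37.9, Mrpl27, near the peptidyl transferase centre, at 44.1, and Mrpl44, which has an RNase III fold, at 36.3. Mrpl58, a peptidyl-tRNA hydrolase built into the large subunit, was at 19.8 TPM. Mrps30, counted with the same subunit, was at 26.7.

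In the small subunit, Mrps2 was at 106 TPM, Mrps5 at 89.3 and Mrps7 at 52.9. Mrps12, the counterpart of the bacterial protein at the decoding site, was at 57.4 TPM. Mrps22, which is specific to mitochondria, was at 39.4, Mrps14 at 29.5 and Mrps16 at 24.6. Mrps36 of the dehydrogenase complex was at 61.4 TPM, within the quartiles of the mitoribosomal genes.

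**Figure D2:**
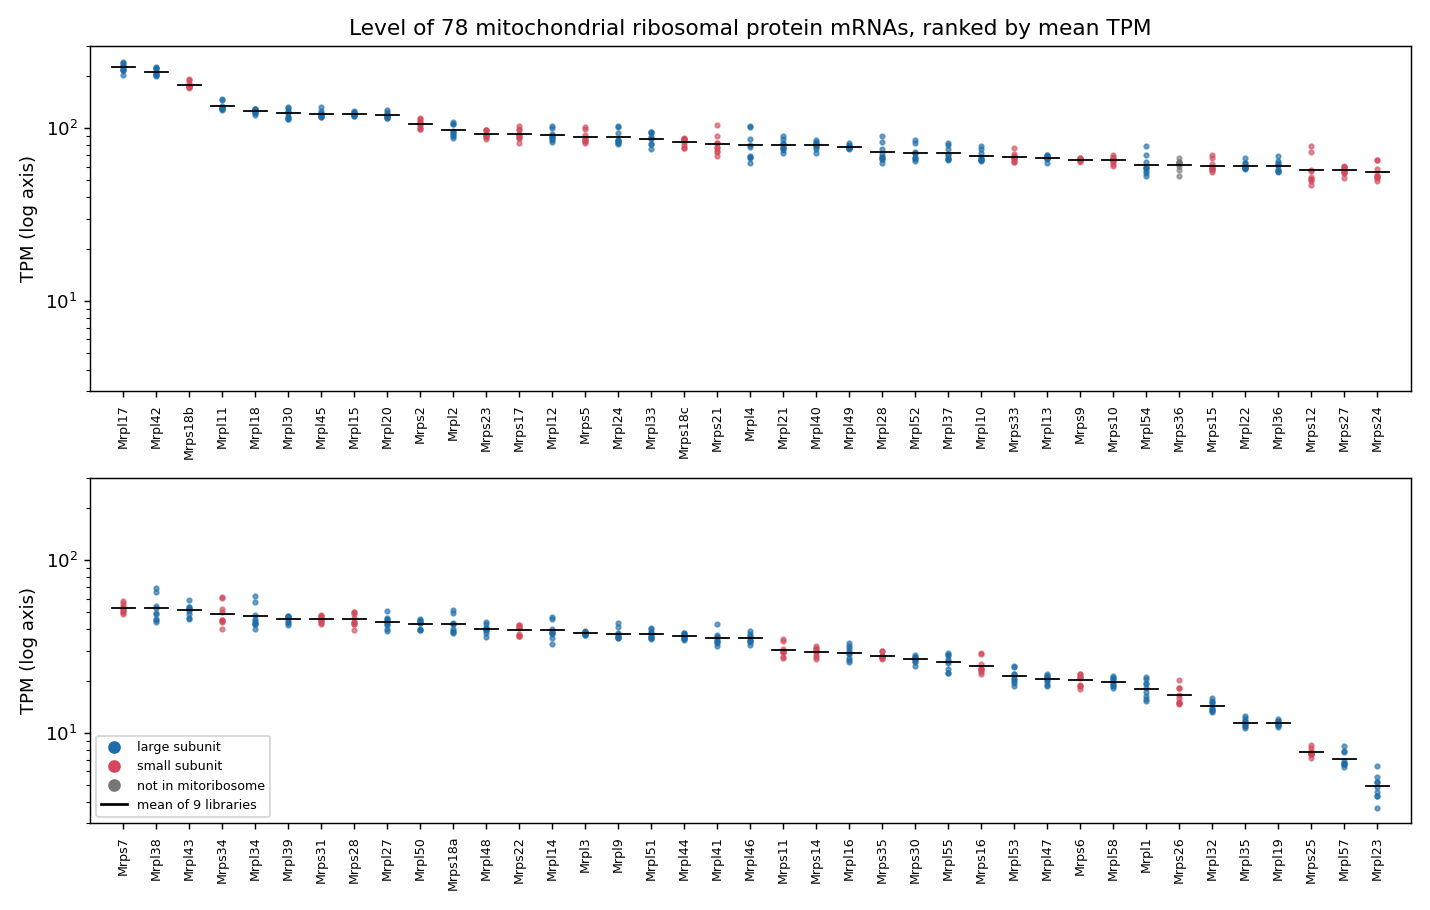
Level of each of the 78 genes in TPM (log axis), with a point for each of the 9 libraries coloured by subunit and a bar at the mean, ordered by mean. The points of a gene lie close together next to the range across genes, from 4.90 TPM (Mrpl23) to 225 TPM (Mrpl17).

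The members also varied little between libraries. The coefficient of variation of a member's CPM over all 9 libraries had a median of 6.88%, and 67 of 78 were under 10%. Over all genes tested the median was 13.1%, and over the 9600 other genes within the members' range of CPM it was 11.2%. Mrpl23 alone, at 1.86 to 3.18 CPM, set the lower end of that range. The next lowest member, Mrpl53, was at 9.32 to 11.8 CPM. The 9600 can thus include genes of lower level than the other members, and no closer match of level was made. Mrps18b varied least (2.93%) and Mrps12 most (18.0%). The summed CPM of all 78 genes was 3732, 3929 and 4148 in untreated cells, 3983, 3858 and 3925 in siLuc, and 3921, 4030 and 4186 in siStag3, each in the order Set 1, Set 1, Set 3. Group means were 3936 ± 208, 3922 ± 62.6 and 4046 ± 133 (SD, n = 3), and the 3 groups overlapped. In bulk RNA, fewer cells of a type and less RNA per cell cannot be told apart. The ratio of large-subunit to small-subunit CPM stayed between 1.91 and 1.95 in every library.

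**Figure D3:**
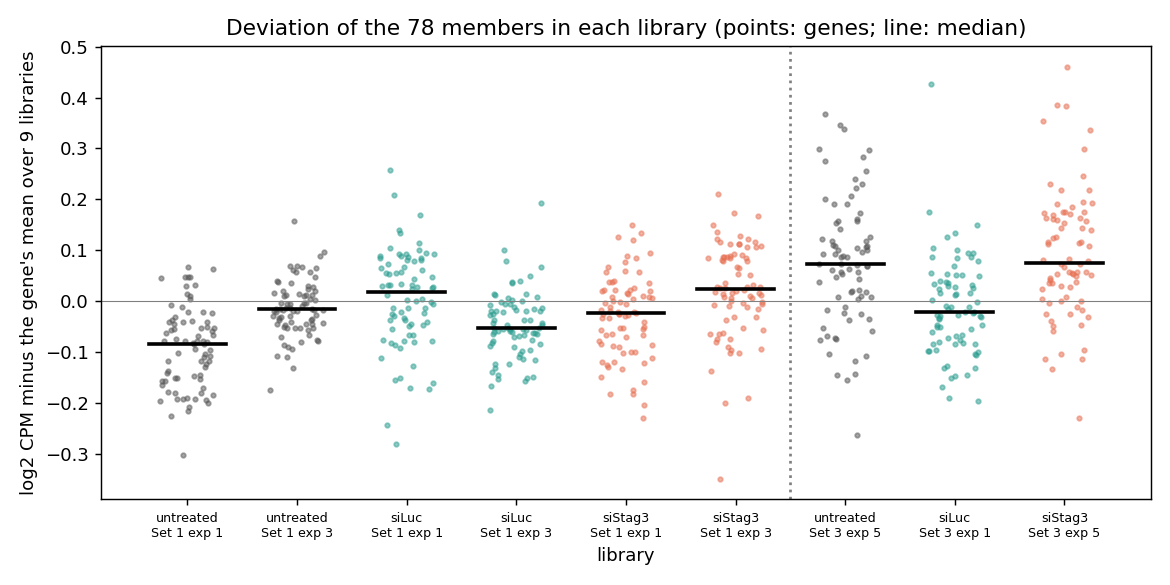
Deviation of each member's log2 CPM from its mean over the 9 libraries (y axis), by library (x axis), with the median of the 78 genes as a bar. Medians run from -0.08 (untreated, Set 1) to 0.08 (siStag3, Set 3), and in untreated and siStag3 cells the Set 3 library has the highest median of its group.

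The first comparison was siStag3 against siLuc, which asks what the Stag3 siRNA changed beyond transfection. No mitochondrial ribosomal protein gene passed the threshold (edgeR quasi-likelihood test, Benjamini-Hochberg adjusted p under 0.05 over 14246 genes), where 4 genes or 0.0281% of all tested did (0.014% higher and 0.014% lower). DESeq2 also called 0 of the 78. At an unadjusted p under 0.05 there were 8 members, or 10.3%, against 7.88% of all genes. The smallest adjusted p of a member was 0.455.

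The fitted differences were small, between -0.21 and 0.20 on the log2 scale with a median standard error (SE) of 0.0692. Of the 78 genes, 63 had a value above 0 (80.8%, against 48.3% of all genes), with a median of 0.04. The large-subunit and small-subunit medians were 0.03 and 0.04. This lean came largely with 1 library: without the siLuc library of Set 3, 40 of the 78 were above 0 and the median was 0.00. Leaving out any other siLuc or siStag3 library kept 51 to 72 above 0. With a correction for GC content 68 were above 0 (87.2%, against 51.1% of all genes), with a median of 0.05. With that correction and without the siLuc library of Set 3, 47 were (60.3%, against 50.9%), with a median of 0.01. In a fit of Set 1 alone the median difference was 0.00 with 43 above 0 (55.1%, against 49.5% of all genes). In Set 3, where a group is 1 library, the median was 0.09 with at least 56 above 0, counted on rounded differences.

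None of the members named here passed the test. Mrpl43, a mitochondria-specific large-subunit protein, had the smallest p. It was at 46.5, 49.1 and 46.5 CPM in siLuc and 51.3, 53.6 and 57.3 in siStag3, and the untreated libraries were at 50.0, 51.3 and 52.1. The siLuc and siStag3 libraries did not overlap, and the fitted difference was 0.19 (SE 0.0612, adjusted p 0.455). Mrpl54 differed by 0.20 (SE 0.0768, adjusted p 0.518) and Mrps6, the bacterial-type S6 protein, by 0.20 (SE 0.0786, adjusted p 0.544). On the other side stood Mrpl1 at -0.11 (adjusted p 0.725), Mrpl23 at -0.21 (adjusted p 0.742) and Mrpl50 at -0.07 (adjusted p 0.817).

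Members with a role named above did not pass either. Mrpl12 was at 80.5 ± 2.92 CPM in siLuc and 88.2 ± 5.53 in siStag3 (SD, n = 3), with 85.3 ± 5.30 in untreated cells. Mrps2 was at 149 ± 2.65 and 160 ± 5.36, with 160 ± 5.54 in untreated cells. Mrps18b was at 101 ± 1.20 and 103 ± 3.57, and Mrps30 at 62 ± 3.53 and 64.4 ± 2.44. Adjusted p-values of these 4 genes ran from 0.635 (Mrpl12) to 0.884 (Mrps18b), with Mrps2 at 0.653 and Mrps30 at 0.830.

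In siLuc against untreated cells, Mrpl1 rose and Mrpl4 fell, and no other member passed in the main test. Those 2 of 78 are 2.56%, against a background of 4.2% of all genes called. By direction, 1.65% of all genes were called higher and 2.55% lower. DESeq2 called 3 members, 1 higher and 2 lower. Of the lower ones 1 encodes a small-subunit protein, so it is neither Mrpl1 nor Mrpl4. The share of all genes that DESeq2 called is not given here. At an unadjusted p under 0.05 there were 9 members (11.5%), against 27.8% of all genes. The median of the family was -0.01, and 37 of 78 were above 0. Under scaling by total count only, the members' median was -0.06 and that of all genes -0.05.

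Mrpl1 (ENSMUSG00000029486) encodes the protein of the L1 stalk, past which spent tRNA leaves the ribosome. It was at 37.7 and 44.4 CPM in the untreated Set 1 libraries and 36.5 in that of Set 3, against 52.3, 50.0 and 42.2 in siLuc. Each siLuc library lay above the untreated libraries of its own set, but the siLuc library of Set 3 was below 1 untreated library of Set 1. The log2 fold change was 0.28 (SE 0.0731, adjusted p 0.0485). In siStag3 it was at 47.6, 49.4 and 37.4 CPM.

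Mrpl4 (ENSMUSG00000003299), a bacterial-type protein that lines the exit tunnel, was at 47.3, 44.8 and 58.4 CPM in untreated cells and 37.2, 39 and 46.5 in siLuc. Again the siLuc libraries were below the untreated ones within each set and overlapped them across sets. The log2 fold change was -0.29 (SE 0.0654, adjusted p 0.0296). In siStag3 Mrpl4 was at 40.1, 41.1 and 57.8 CPM.

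Both calls were close to the threshold and were lost under several other settings. A correction for GC content took Mrpl1 to 0.09 (adjusted p 0.427) and Mrpl4 to -0.10 (adjusted p 0.259), and their GC contents, 41.4% and 60.1%, are near the ends of the family's range. Leaving out any 1 of the 6 libraries compared ended the call of Mrpl1 (adjusted p 0.0528 to 0.176). For Mrpl4 it did so in 5 of 6 fits, with adjusted p from 0.0520 to 0.149, and at 0.0441 without the siLuc library of Set 1 experiment 3.

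The other members of small p did not pass in the main test. Mrpl50 was at 0.19 (adjusted p 0.101) and Mrpl47, the counterpart of bacterial L29 beside the tunnel exit, at 0.18 (adjusted p 0.108). Mrps34, a mitochondria-specific small-subunit protein, was at -0.26 (adjusted p 0.0638). Mrpl57 was at 14.8, 16.0 and 16.8 CPM in untreated cells and 13.9, 13.7 and 13 in siLuc, which do not overlap. Its log2 fold change was -0.23 (SE 0.0782, adjusted p 0.0907), and with the GC correction it was called lower, at -0.38 (adjusted p 0.00487). In that fit 3.64% of all genes were called lower and 3.17% higher.

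siStag3 against untreated cells joins transfection with the Stag3 siRNA and shares its libraries with both comparisons above. No member passed in edgeR or in DESeq2, against a background of 2.53% of all genes (1.07% higher and 1.46% lower). At an unadjusted p under 0.05 there were 7 members (8.97%), against 17% of all genes. The median was 0.05, with 53 of 78 above 0 (67.9%, against 48.6% of all genes), and under scaling by total count only it was 0.01, where that of all genes was -0.05. With the GC correction 64 were above 0 (82.1%, against 49.7% of all genes), with a median of 0.05.

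Mrpl47 had the smallest p among the members above 0. It was at 42.1, 45.1 and 46.2 CPM in untreated cells and 53.3, 52.5 and 48.0 in siStag3, which did not overlap, with a difference of 0.21 (SE 0.0665, adjusted p 0.130). In siLuc it was at 51.6, 48.4 and 51.3 CPM. Mrpl32, a zinc-binding protein that is cut by the m-AAA protease on import, differed by 0.22 (adjusted p 0.149) and Mrpl35 by 0.19 (adjusted p 0.197). Mrpl57 was lower at 13.7, 14.1 and 13.8 CPM, a difference of -0.20 (adjusted p 0.218) that passed with the GC correction, at -0.28 (adjusted p 0.0317). That fit called 3.31% of all genes lower and 3.14% higher. Mrpl4 and Mrps21, both at -0.12, did not pass (adjusted p 0.350 and 0.473).

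More members were called between the sets than in any comparison of groups. With groups held fixed, 19 members were called (24.4%, against 42.7% of all genes). Of these, 18 were higher in Set 3 (23.1%, against a background of 21.4%) and 1 was lower (1.28%, against 21.2%). The median was 0.07, and 57 of 78 were above 0. At an unadjusted p under 0.05 there were 28 members (35.9%), against 50.9% of all genes. Leaving out 1 library moved the 19 calls to between 6 and 26: there were 6 without the untreated library of Set 3, 10 without the siStag3 library of Set 3 and 12 without the siStag3 library of Set 1 experiment 1.

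Mrps12 had the largest rise. It was at 27.3, 26.7, 25.9, 26, 24.6 and 26.9 CPM in the 6 Set 1 libraries and at 36.5 (untreated), 29.3 (siLuc) and 39.7 (siStag3) in Set 3, so the sets did not overlap. The log2 difference was 0.42 (SE 0.0731, adjusted p 0.000619). Mrpl4 rose by 0.38 (SE 0.0558, adjusted p 0.000173), from a mean of 41.6 CPM in Set 1 to 54.2 in Set 3. Its 3 Set 3 libraries are those given above, and the siLuc library was again the lowest of them.

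Mrpl38, a mitochondria-specific large-subunit protein, rose by 0.36 (adjusted p 0.000951) and Mrpl34, among the smallest bacterial-type proteins, by 0.31 (adjusted p 0.00689). Mrps26 and Mrps21 each rose by 0.27 (adjusted p 0.000754 and 0.00753). The other 12 rises were from 0.13 to 0.24 and included Mrps5 at 0.13, Mrps16 at 0.19 and Mrps18a at 0.23 (adjusted p 0.0355, 0.0224 and 0.0104). Mrpl1 was the member that fell, by 0.27 on the log2 scale (SE 0.0641, adjusted p 0.00414). Mrpl39 at -0.12 and Mrpl40 at -0.14 did not pass.

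In both comparisons with untreated cells, and between the sets, the members' differences followed the GC content of their transcripts. The family spans GC contents from 41.4% to 60.6%, with a median of 50.5% that is close to the 50.7% of all genes tested. Across the 78 genes, siStag3 against siLuc had a Spearman's rho of 0.47 between log2 difference and GC content. The rho was -0.67 for siLuc and -0.56 for siStag3 when each was set against untreated cells, and 0.52 for Set 3 against Set 1. The values over 14226 genes had the same signs, at 0.38, -0.49, -0.31 and 0.49. The rho of siStag3 against siLuc rested on the Set 3 libraries. It was 0.06 without the siLuc library of Set 3 (0.02 over all genes), 0.03 without the siStag3 library of Set 3 (-0.05) and -0.09 in Set 1 alone (-0.16). In Set 1 alone the rho against untreated cells was -0.58 for siLuc and -0.68 for siStag3. The points of each correlation share their libraries, and the first 3 comparisons share groups.

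Of the 18 members with a GC content of at least 55%, 10 were called higher in Set 3 (55.6%, against 43.2% of all genes in that range). Of the 14 under 46% none was, against 3.89% of all genes there. The 10 became 3 without the untreated library of Set 3, 4 without the siStag3 library of Set 3 and 15 without the siLuc library of Set 3. With the GC correction 3 of the 18 (16.7%) and 9 of the 14 (64.3%) were called higher. All genes, whatever their GC content, were called higher at 20.3% in that fit. Their share within each GC range was not computed for it, so these counts cannot be read as particular to the members. In siLuc against untreated cells, the 18 of high GC content had a median of -0.11 with 1 above 0, and the 14 of low GC content 0.13 with 12 above 0. After the GC correction rho over the members was -0.17, 0.23 and 0.11 for the comparisons of groups. It turned to -0.52 for the sets, where 28 members were then called higher (35.9%, against 20.3% of all genes) and 3 lower (3.85%, against 20.7%). The part of GC content in the calls of Mrpl1 and Mrpl4 was not tested beyond this correction.

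**Figure D4:**
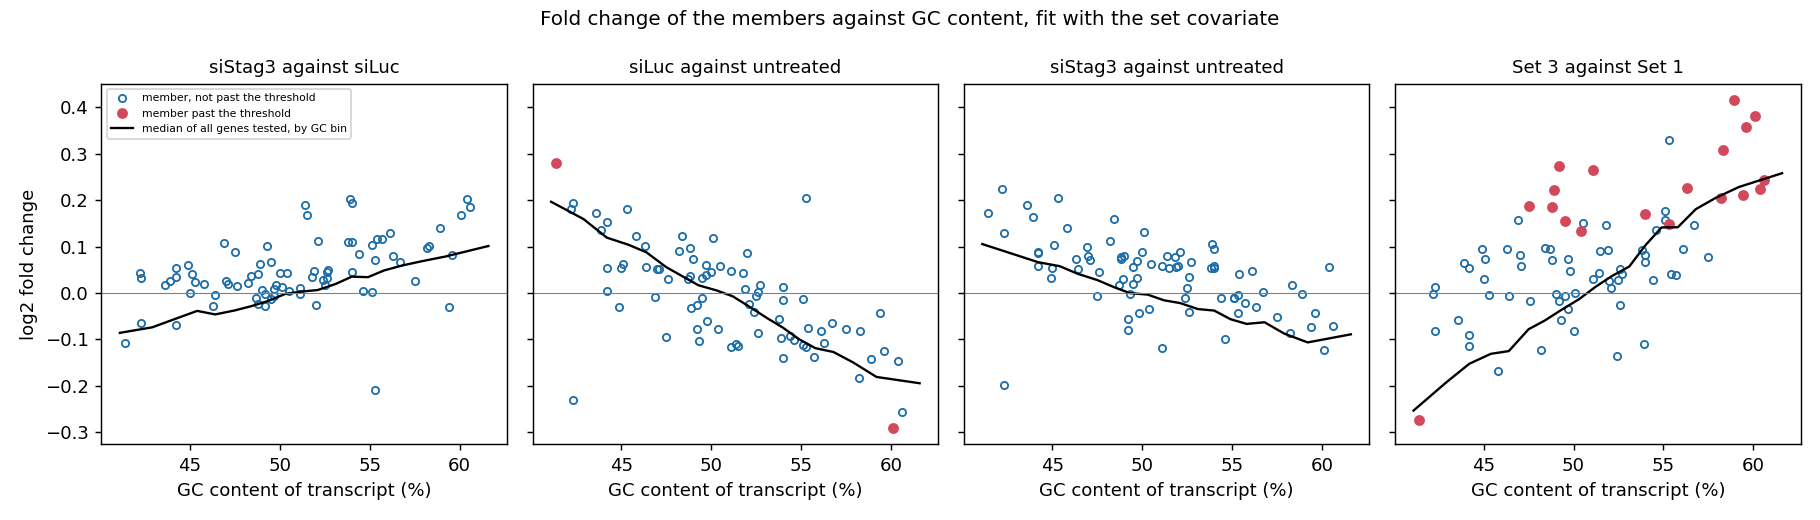
Log2 difference of each of the 78 genes (y axis) against the GC content of its transcripts (x axis, percent), in a panel per comparison, with members past the threshold filled and a line for the median of all genes by GC bin. Points slope down in siLuc against untreated (rho -0.67) and up in Set 3 against Set 1 (rho 0.52).

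Genes that work with the mitoribosome were followed in the same tests. Of its 5 proteins that carry other names (Dap3, Chchd1, Aurkaip1, Ptcd3 and Gadd45gip1), none passed in a comparison of groups. Gadd45gip1 came nearest, at -0.20 in siLuc against untreated (adjusted p 0.0990). Of 33 tested genes for mitoribosome assembly and rRNA modification, 3 fell (9.09%, against 2.55% of all genes) and none rose in siLuc against untreated, with a list median of -0.01. The 3 calls became 0 without a term for the set, and 0 when the siLuc library of Set 1 experiment 1 or of Set 3, or the untreated library of Set 1 experiment 1 or of Set 3, was left out. Without either other library there was 1. The 3 genes were Gtpbp6, a GTPase of ribosome recycling and assembly (-0.43, SE 0.0948, adjusted p 0.0262), Mettl17, a small-subunit assembly factor (-0.32, adjusted p 0.0219), and Mtg2, a large-subunit assembly GTPase (-0.26, adjusted p 0.0406). With the GC correction Gtpbp6 and Mettl17 still passed, at -0.24 and -0.25 (adjusted p 0.0192 and 0.0153), and Mtg2 did not (-0.17, adjusted p 0.0894).

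Mettl17 was at 26.5, 25.7 and 34.4 CPM in untreated cells, 19.8, 20.4 and 29.6 in siLuc, and 21.5, 22.1 and 32.3 in siStag3. As with Mrpl4, the Set 3 library was the highest of each group. Further lists held 21 genes of mitochondrial translation, mRNA handling and transcription, 22 of tRNA charging (synthetases and the amidotransferase subunits Qrsl1, Gatb and Gatc) and 12 regulators of mitochondrial genes. None of these passed in the main test of any comparison of groups, and no gene of any list did in siStag3 against siLuc. The nearest in the main test were Tfb2m, a mitochondrial transcription factor, at 0.25 in siLuc against untreated (adjusted p 0.0617), and the valine enzyme Vars2 at -0.31 (adjusted p 0.0746). With the GC correction 1 of the 22 was called lower in each comparison with untreated cells (4.55%, against 3.64% of all genes for siLuc and 3.31% for siStag3). In siStag3 against untreated 1 of the 12 regulators was then called higher (8.33%, against 3.14%).

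The mRNAs that these ribosomes translate moved apart from the ribosomal protein genes. All 13 mRNAs of the mitochondrial genome were above 0 in both comparisons with untreated cells. These 13 belong to 1 genome and were read in the same libraries, so they are not independent of each other. In siLuc 5 passed (38.5%, against 1.65% of all genes called higher) and the median was 0.64. In siStag3 3 passed (23.1%, against 1.07%) and the median was 0.47. Leaving out 1 library gave 2 to 6 calls in siLuc, with 2 without the siLuc library of Set 1 experiment 1 or the untreated library of Set 3 and 3 without the siLuc library of Set 3 or the untreated library of Set 1 experiment 1. It gave 1 to 8 in siStag3, with 8 without its own Set 3 library and 1 without its Set 1 experiment 1 library or the untreated library of Set 3. siStag3 against siLuc had a median of -0.20 and no call. That median was 0.01 with 7 of 13 above 0 without the siLuc library of Set 3, -0.02 without the siStag3 library of Set 3, and -0.09 with the GC correction. In Set 3 against Set 1, 7 fell (53.8%, against 21.2% of all genes). The summed CPM of the 13 was 42803, 53272 and 33553 in untreated cells, 69158, 61996 and 59544 in siLuc, and 67776, 69982 and 39688 in siStag3, in the order Set 1, Set 1, Set 3. The siStag3 library of Set 3 thus lay within the untreated range, and the siLuc libraries all lay above it.

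mt-Nd5, a subunit of complex I, was at 2570, 2530 and 1630 CPM in untreated cells, 3700, 3510 and 2710 in siLuc, and 3660, 3520 and 2100 in siStag3. It rose by 0.58 in siLuc (SE 0.0692, adjusted p 0.000770) and by 0.45 in siStag3 (SE 0.0691, adjusted p 0.00331). mt-Nd4l, of the same complex, rose by 0.49 and 0.39 (adjusted p 0.00125 and 0.00525). Median GC content of the 13 was 37.1%, below that of every mitochondrial ribosomal protein gene. With the GC correction the medians were 0.40 and 0.35, with 5 and 6 calls. Without a term for the set the medians were 0.58 and 0.47, with all 13 above 0, and none passed in either comparison. The rRNAs of the mitochondrial genome were not analysed here.

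**Figure D5:**
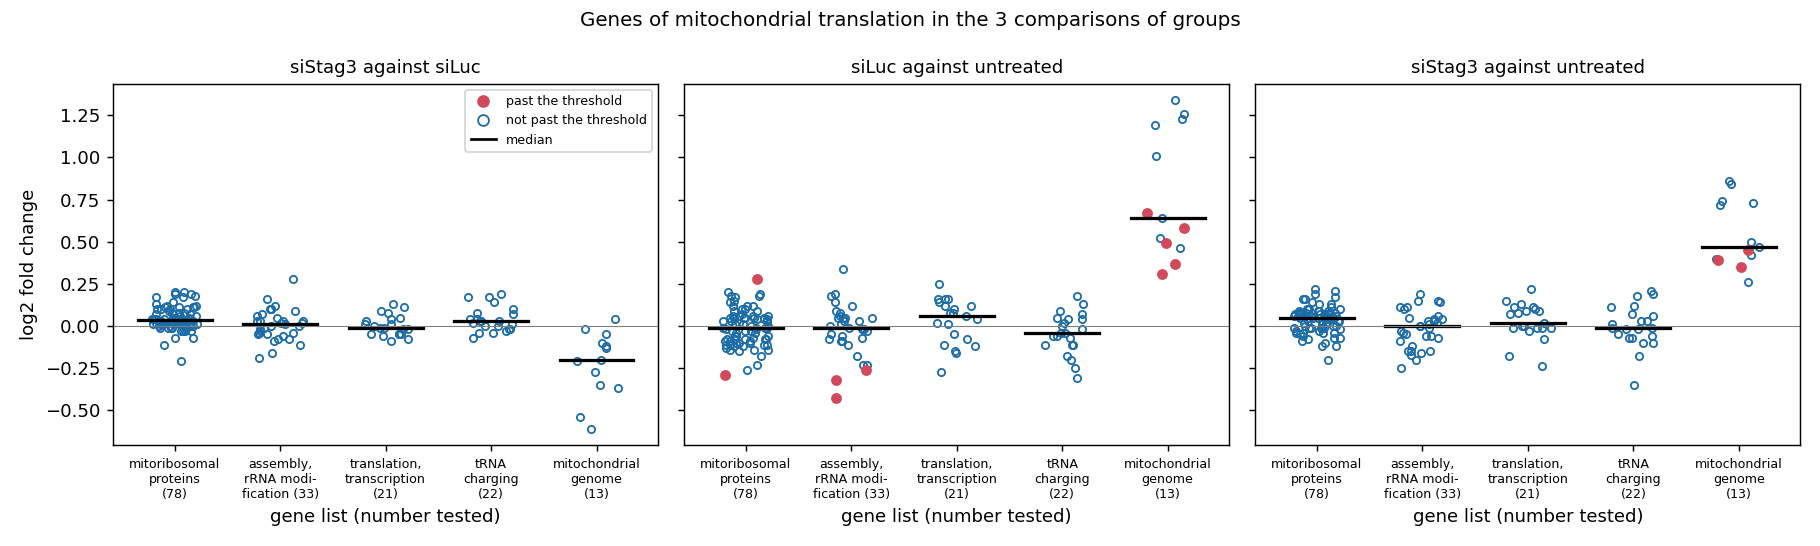
Log2 fold change (y axis) of the mitochondrial ribosomal protein genes and of 4 related lists (x axis), in a panel for each comparison of groups, with genes past the threshold filled and the list median as a bar. The medians of the ribosomal protein genes lie between -0.01 and 0.05, and those of the 13 mitochondrial genome mRNAs at -0.20, 0.64 and 0.47.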

How the data were processed

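The authors deposited 1 table of whole-number counts per gene for 9 libraries, described as raw. Per the submitters' processing notes, FastQC, Salmon, DESeq2 and GRCm39 were used, so the counts may be rounded estimates. Versions, annotation, strand setting and any filter are not given in the sources used here. mRNA libraries were made from total RNA, per the labels' protocols. Columns were matched to groups by name. They carry set and experiment numbers in place of the replicate numbers of the titles.

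Genes were tested by quasi-likelihood F in edgeR 4.0.16 (R 4.3.3), with TMM factors, filterByExpr, estimateDisp and a robust glmQLFit. The model held all 9 libraries, a mean for each group and an additive set term, and p-values were two-sided and adjusted over 14246 genes. The SE is the absolute log2 fold change divided by the square root of F. Alternatives included DESeq2 1.42.0 and a GC correction, which subtracted each library's median deviation in 20 bins of GC content. TPM here is CPM per median coding-transcript length. Lengths, GC content and shared 31-base stretches came from GENCODE M21 transcripts, which hold 16604 of the 16636 IDs. The scripts were tested on simulated data.

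The members, gene lists, set term and tests were chosen with earlier results of these data known. Named were 20 members chosen by role, the 3 of highest and of lowest level, and in each comparison up to 6 members past the threshold in each direction, or the 3 of smallest p where fewer than 3 passed. Of each list, at most the 2 genes of smallest p were named per comparison. Mtg2, the 6 genes of highest sequence sharing, the genes of the shortest list and the amidotransferase subunits were named besides. P-values of the main test set a fitted difference against the spread between these libraries that remains after the group and set terms. Counts per member and library were at least 59.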

Additional observations from a re-analysis of the deposited data

How the results depend on the processing

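With siStag3 against siLuc, 0 members passed under every setting tried. For siLuc against untreated the 2 calls became 0 without a term for the set, 0 with Set 1 alone, 1 with a non-robust fit and 1 (Mrpl57) with the GC correction. Leaving out 1 library gave 0 to 1, and in comparisons of groups only libraries of the groups compared were left out. For siStag3 against untreated the count of 0 became 1 with the GC correction (Mrpl57), 1 with Set 1 alone (Mrpl47), and 0 to 1 when 1 library was left out. The 19 calls between the sets became 31 with the GC correction, 31 with scaling by total count only and 6 to 26 when 1 library was left out. For siLuc against untreated, DESeq2 and the fit of only the 6 libraries compared each called 3. Scaling by total count only called 2 there, both lower, and 1 of them encodes a small-subunit protein. Apart from the fits given below, other settings kept these counts within 1.5 times. Mrpl50, at -0.07 in siStag3 against siLuc, was at 0.00027 with the GC correction and 0.0026 with Set 1 alone. The cause was not tested.

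The set and experiment numbers, entered as a replicate block, gave 0 members in siLuc against untreated. The experiment numbers did not pair the libraries: within Set 1, the differences between experiments 1 and 3 correlated at -0.0254, -0.0439 and -0.0371 between groups. After the data were seen, a replicate block with the GC correction was added, which gave 1 member (Mrpl57) in each comparison with untreated cells and Mrpl50 at 0.00024. Also added was the GC correction without the siLuc library of Set 3, which gave 0 in siLuc against untreated. Counting depth limits Mrpl23 most.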
